A study of Rattus norvegicus with 16 samples.

Results

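Col1a1, Col3a1 and Col5a2 encode chains of fibrillar collagens, the rope-like proteins that give connective tissue its strength. They were taken by name, with earlier results of these data known. Their identifiers were read from the symbol column of the study's gene sheets. They are 3 of the 32552 genes counted in each library, of which 2007 have a symbol here. The study placed implants on the abdominal wall of Sprague Dawley rats and sequenced mRNA of the implant–tissue interface, to ask how gene expression differs where an implant bonds to the tissue. There were 4 groups of 4 libraries: adhesive and non-adhesive implants on day 14, and adhesive and non-adhesive implants on day 3 post-implantation. The labels give female rats aged 12 weeks. The adhesive implant is a polyurethane mock device with a bonding layer of poly(acrylic acid) NHS ester and poly(vinyl alcohol). The non-adhesive implant is the same device after swelling in PBS, which ends the bonding, and it was held by sutures at its corners. Sutures are therefore part of every comparison of implants, and their part in the values was not tested. Whether the 4 libraries of a group are from 4 rats is not stated, and p values cover the spread between libraries only. Days follow the labels of the samples. Day 17 stands in the series description too, and day 10 in the protocol for RNA extraction.

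Type I collagen, built from the chains of Col1a1 and its partner Col1a2, forms the thick fibrils of scar, skin and tendon. Type III collagen, made of the Col3a1 chain alone, is a major collagen of young granulation tissue and of distensible organs such as blood vessels. Type V collagen, which contains the Col5a2 chain, is a minor component that helps to start type I fibrils and limits their thickness. In the foreign body reaction, fibroblasts and myofibroblasts lay these collagens down as a fibrous capsule around an implant.

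In the coordinates of the count files, Col1a1 (ENSRNOG00000003897) lies on the forward strand of chromosome 10 from 82745801 to 82762789, with 51 exons and an exonic length of 5825 bases. Col3a1 (ENSRNOG00000003357) lies on the forward strand of chromosome 9 from 52023295 to 52059217, with 51 exons and 4765 exonic bases. Col5a2 (ENSRNOG00000003736) lies on the reverse strand of the same chromosome from 52092511 to 52238564, with 57 exons and 4482 exonic bases. Col3a1 and Col5a2 are thus neighbours that point towards each other, with 33293 bases between their annotated ends. No annotated gene overlaps Col1a1 or Col5a2, and the gene of 141 bases annotated inside Col3a1 had a count of 0 summed over the 16 libraries. The genome build of these coordinates is not settled by the sources, which name both a rat and a mouse assembly.

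The RefSeq promoter set for the rat assembly GRCr8 matched 1 of the 3 genes, Col5a2. Its 250 bases before the annotated start are at chr9:55090152-55090401 on the reverse strand, and are shown because they are the start of the gene that passed the test in 1 setting below. Capitals mark TATTTAA, letters picked out after the sequence was read, which begin 32 bases before the start.
Col5a2: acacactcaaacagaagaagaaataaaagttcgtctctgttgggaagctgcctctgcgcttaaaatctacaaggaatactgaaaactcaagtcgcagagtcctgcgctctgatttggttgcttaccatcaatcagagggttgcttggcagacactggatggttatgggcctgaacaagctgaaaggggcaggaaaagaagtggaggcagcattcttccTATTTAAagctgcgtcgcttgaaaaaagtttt
TATTTAA is on either strand in 4.16% of the 33469 promoters of the same set and length. The motif TATAAA, the core of a TATA box, is on neither strand of the Col5a2 stretch and in 12.9% of all promoters. The same holds for the CCAAT box, spelled CCAAT, found in 34.0%, and the GC box, spelled GGGCGG, found in 30.5%. The stretch is 44.8% G and C.

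Library totals were 13852126 to 15994448 counts for adhesive and 14710269 to 16801635 for non-adhesive implants on day 14, and 18616084 to 22374546 for adhesive and 19921066 to 24858976 for non-adhesive implants on day 3. Every day 14 library was shallower than every day 3 library, so day and any batch with the same split cannot be told apart. Levels are given as CPM, counts brought to a common library size, after scaling by TMM, a method that takes most genes to be alike between libraries. The TMM factors ran between 0.619 in non-adhesive replicate 4 of day 14 and 1.41 in non-adhesive replicate 1 of day 3.

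Mean levels of all 3 collagens were lower in adhesive than in non-adhesive groups on both days, and the order of the 4 group means was the same for each gene. It ran, low to high, adhesive day 3, adhesive day 14, non-adhesive day 3 and non-adhesive day 14. The libraries of neighbouring groups in this order overlapped for every collagen. None of the differences passed the test over all genes with all 16 libraries. In bulk tissue, fewer collagen-making cells and less collagen mRNA per cell cannot be told apart.

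**Figure D1:**
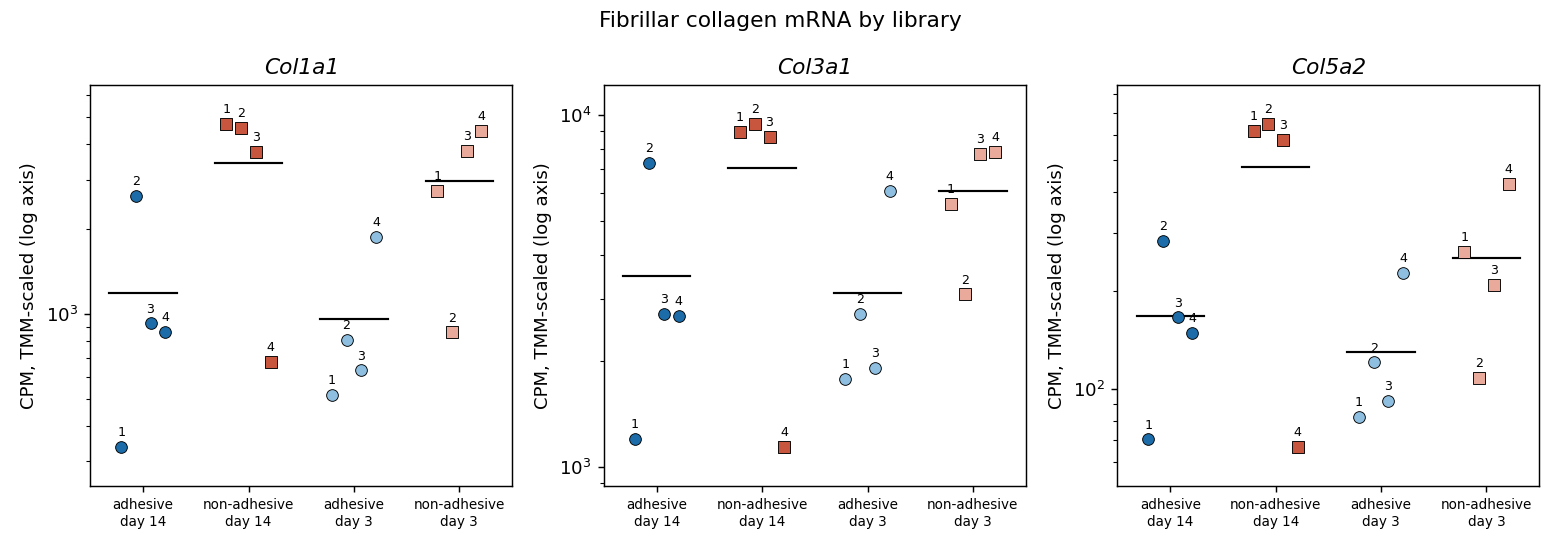
Level of each collagen in every library (TMM-scaled CPM, log axis), with a point per library labelled by its replicate number and a bar at the group mean; circles are adhesive and squares non-adhesive implants. On day 14, replicate 4 of the non-adhesive group sits at 674 CPM for Col1a1, 1137 CPM for Col3a1 and 66.5 CPM for Col5a2, far below the other 3 squares of its group.

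On day 14, Col1a1 had 337, 2635, 927 and 866 CPM in adhesive replicates 1 to 4, against 4739, 4584, 3776 and 674 CPM in non-adhesive replicates 1 to 4. The means were 1191 ± 998 CPM for adhesive and 3443 ± 1894 CPM for non-adhesive implants (SD, n = 4 each). Non-adhesive replicates 1 to 3 were above all adhesive libraries, and replicate 4 was below 3 of the 4. Col3a1, the most abundant of the 3, had 1199, 7312, 2722 and 2679 CPM in adhesive libraries, against 8960, 9438, 8655 and 1137 CPM in non-adhesive libraries. Its means were 3478 ± 2652 and 7048 ± 3953 CPM for adhesive and non-adhesive implants (SD, n = 4 each). Here non-adhesive replicate 4 was the lowest library of the day, and adhesive replicate 2 came closest to the other 3 non-adhesive ones. Col5a2, the minor fibril collagen, had 70.1, 284, 166 and 148 CPM in adhesive libraries, against 616, 647, 577 and 66.5 CPM in non-adhesive libraries. Its means were 167 ± 88.2 and 477 ± 275 CPM for adhesive and non-adhesive implants (SD, n = 4 each). The same library, non-adhesive replicate 4, was again the lowest, and the remaining 3 were each more than the highest adhesive library.

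Over all genes of day 14, edgeR's quasi-likelihood test with Benjamini-Hochberg adjustment gave -1.53 for Col1a1 as log2 fold change, adhesive over non-adhesive (standard error 0.73, adjusted p = 0.364). The value for Col3a1 was -1.01 (standard error 0.72, adjusted p = 0.555 from edgeR). Col5a2 had -1.51 (standard error 0.66, adjusted p = 0.316 from edgeR). So 0 of the 3 collagens were called, which takes an adjusted p no higher than 0.05 and a fold change of 1 or more on the log2 scale, where 0.266% of the 13557 genes tested were called in either direction and 0.111% were called lower. At an unadjusted level the p of edgeR was 0.0674 for Col1a1, 0.192 for Col3a1 and 0.0504 for Col5a2, and 15.9% of all genes had an unadjusted p under 0.05. DESeq2, the tool of the study, called none of the 3 either, with adjusted p of 0.173 for Col1a1, 0.451 for Col3a1 and 0.139 for Col5a2, and it called 3.5% of all genes. With all libraries, none of the 3 had its adhesive libraries wholly below the non-adhesive ones, which 4.11% of genes had.

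Whether a collagen was called in this comparison depended on a single library. Without non-adhesive replicate 4, the remaining 3 non-adhesive libraries averaged 4366 ± 517 CPM for Col1a1, 9018 ± 395 CPM for Col3a1 and 613 ± 35.3 CPM for Col5a2 (SD, n = 3). Their means were 6.47, 7.93 and 9.23 times the level of replicate 4 for Col1a1, Col3a1 and Col5a2. With that library left out, Col5a2 was called lower at adhesive implants, at -1.89 on the log2 scale (adjusted p = 0.0177 from edgeR, standard error 0.39). Col1a1 then had -1.88 (adjusted p = 0.0513 from edgeR) and Col3a1 -1.38 (adjusted p = 0.0851 from edgeR), so neither was called. For all 3 collagens the adhesive libraries then lay wholly below the non-adhesive ones, as did 18.5% of all genes. Replicate 4 is set apart by its low collagen values, so this separation follows from leaving it out. The same choice favours the call of Col5a2, and neither is support for a difference. In the same setting edgeR called 8.32% of all genes, and 6.22% were called lower, so a call there is common. Leaving out any other library of day 14 gave a log2 fold change of -2.27 to -1.23 for Col1a1, with none of the 3 collagens called. Adhesive replicate 2 moved the fold changes at least as far as non-adhesive replicate 4. Without it they were -2.27 for Col1a1, -1.68 for Col3a1 and -1.89 for Col5a2, with adjusted p of 0.155, 0.255 and 0.218 from edgeR.

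On day 3, Col1a1 had 518, 809, 631 and 1875 CPM in adhesive libraries, against 2734, 860, 3793 and 4457 CPM in non-adhesive libraries. The means were 958 ± 623 CPM for adhesive and 2961 ± 1570 CPM for non-adhesive implants (SD, n = 4 each). The groups overlapped through adhesive replicate 4, which was high, and non-adhesive replicate 2, which was low. Col3a1 had 1772, 2715, 1911 and 6096 CPM in adhesive libraries, against 5582, 3089, 7742 and 7862 CPM in non-adhesive libraries. Its means were 3124 ± 2025 and 6069 ± 2246 CPM for adhesive and non-adhesive implants (SD, n = 4 each). Adhesive replicate 4 was above non-adhesive replicates 1 and 2, and the other 3 adhesive libraries were below all non-adhesive ones. Col5a2 had 82.0, 121, 91.8 and 226 CPM in adhesive libraries, against 262, 108, 208 and 425 CPM in non-adhesive libraries. Its means were 130 ± 66.1 and 251 ± 132 CPM for adhesive and non-adhesive implants (SD, n = 4 each). For this gene non-adhesive replicate 2 was below adhesive replicates 2 and 4, and non-adhesive replicate 3 was below adhesive replicate 4.

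As log2 fold change, Col1a1 had -1.60 on day 3 (standard error 0.57, adjusted p = 0.631 from edgeR), close in size to that of day 14. Col3a1 had -0.94 (standard error 0.48, adjusted p = 0.720 from edgeR), and Col5a2 had -0.93 (standard error 0.46, adjusted p = 0.717 from edgeR). None of the 3 was called or free of overlap, where 2.68% of genes had all adhesive below all non-adhesive libraries. Of 14223 genes, edgeR called 0 (0%) on day 3, with 1022 genes at an unadjusted p under 0.05. DESeq2 called 69 genes (0.485%), and gave the collagens adjusted p of 0.137, 0.490 and 0.499 for Col1a1, Col3a1 and Col5a2. Leaving out each library in turn moved the value of Col1a1 between -2.19 and -1.35, that of Col3a1 between -1.52 and -0.73 and that of Col5a2 between -1.36 and -0.56, with adjusted p of at least 0.239. The lowest of these values, for each gene, came without adhesive replicate 4.

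**Figure D2:**
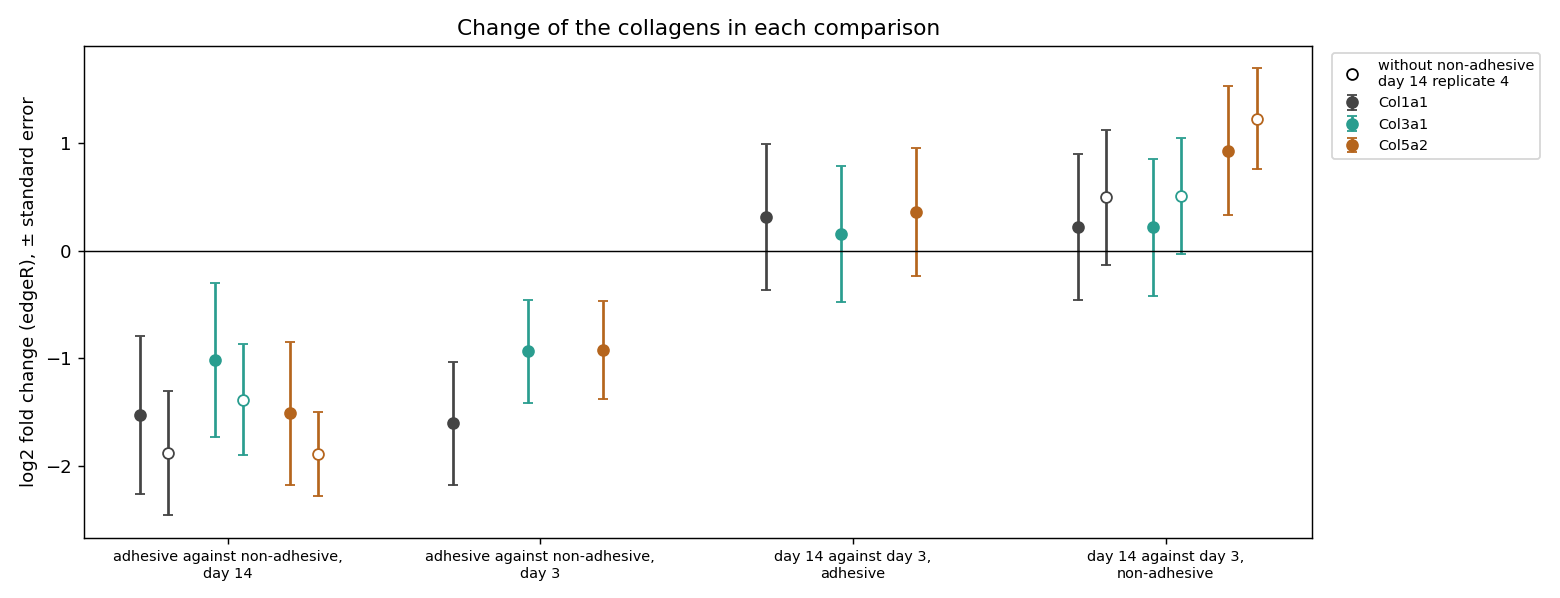
log2 fold change of each collagen from edgeR with its standard error (bars) in the 4 comparisons, with all 16 libraries (filled) and without non-adhesive replicate 4 of day 14 (open). With all libraries the values for adhesive against non-adhesive implants are between -1.60 and -0.93 and those between days between 0.16 and 0.93. Open points are drawn only for the comparisons that use the non-adhesive libraries of day 14. For Col1a1, Col3a1 and Col5a2 they are at -1.88, -1.38 and -1.89 between implants on day 14. Between days at non-adhesive implants they are at 0.50, 0.51 and 1.22.

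Between days, neither implant showed a change that passed the test. At adhesive implants the log2 fold change of day 14 over day 3 was 0.31 for Col1a1, 0.16 for Col3a1 and 0.36 for Col5a2, with adjusted p of 0.778, 0.886 and 0.708 from edgeR, where 8.12% of all 14601 genes were called. At non-adhesive implants it was 0.22 for Col1a1, 0.22 for Col3a1 and 0.93 for Col5a2, with adjusted p of 0.856, 0.846 and 0.299 from edgeR, where 9.07% of all genes were called. These directions depend on the scaling: with library totals alone in place of TMM, the median of all genes moved to -0.58 at adhesive and -0.39 at non-adhesive implants, and all but Col5a2 at non-adhesive implants turned negative. On that scale Col1a1 was -0.23, Col3a1 -0.39 and Col5a2 -0.20 at adhesive implants, each above the median of all genes. Without non-adhesive replicate 4 of day 14, Col5a2 at non-adhesive implants stood at 1.22 (adjusted p = 0.0756 from edgeR, standard error 0.47), still not called, where 9.72% of genes were. For Col5a2 the 3 remaining day 14 libraries, at 577 to 647 CPM, were above the day 3 libraries, at 108 to 425 CPM, and so were those of Col3a1, at 8655 to 9438 CPM against 3089 to 7862 CPM, as for 18% of all genes. Leaving out a library with low collagen favours such a separation, and for Col1a1 the days still overlapped.

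The implant effect itself, adhesive over non-adhesive, was not shown to differ between days. Its difference, day 14 minus day 3, was 0.096 for Col1a1 (standard error 0.96), -0.061 for Col3a1 (standard error 0.90) and -0.57 for Col5a2 (standard error 0.84) on the log2 scale. Each had an adjusted p of 1.00 from edgeR, and 0.00685% of all genes were called. With standard errors this wide, a difference of 1 on the log2 scale in either direction could not be detected.

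Levels varied widely between libraries. Over the 16 libraries, the highest level was 14.0 times the lowest for Col1a1, 8.30 times for Col3a1 and 9.74 times for Col5a2. Within a group it was 3.62 to 7.81 times the lowest for Col1a1, 2.55 to 8.30 times for Col3a1 and 2.76 to 9.74 times for Col5a2. Counting error is small beside this, since the lowest counts of any library were 3120 for Col1a1, 10951 for Col3a1 and 640 for Col5a2. Together the 3 genes took 0.107, 0.937, 0.300 and 0.295% of the counts of adhesive libraries on day 14, against 1.47, 1.46, 1.28 and 0.116% of non-adhesive libraries. On day 3 they took 0.234, 0.455, 0.297 and 1.10% of adhesive libraries, against 1.21, 0.426, 1.45 and 1.54% of non-adhesive libraries. For the lowest of these shares the 95% Wilson interval was 0.106 to 0.109%, which covers counting error only.

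Levels between genes were compared per kilobase of exonic length. Col3a1 was above Col1a1, and Col1a1 above Col5a2, in every one of the 16 libraries, with medians of 910, 241 and 41.7 CPM per kb. Within each group, the ratios between the 3 genes varied less than their levels. In 3 of the 4 groups the SD of log2 CPM was 0.66 to 1.60, while the SD of the log2 ratio of a pair of collagens was 0.077 to 0.41. At non-adhesive implants on day 3 the SDs were closer, at 0.63 to 1.07 for log2 CPM and 0.45 to 0.50 for the log2 ratios. A ratio within a library does not depend on how libraries are scaled.

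The ratio of Col1a1 to Col3a1, type I to type III chains, did not overlap between implants on day 14, a separation that did not pass correction. It was 0.230, 0.295, 0.278 and 0.264 in adhesive libraries, against 0.433, 0.397, 0.357 and 0.485 in non-adhesive libraries, as counts per kb over counts per kb. Every adhesive library was below every non-adhesive library, and non-adhesive replicate 4, whose collagen levels were so low, had the highest ratio of all 16 libraries. The mean log2 ratio was -1.91 ± 0.15 for adhesive and -1.27 ± 0.19 for non-adhesive implants (SD, n = 4 each), a difference of -0.64 (standard error 0.12). The exact permutation test, two-sided, gave p = 0.0286, the smallest that 70 splits of 8 libraries allow. After Benjamini-Hochberg adjustment over the 15 tests of ratios it was 0.214, so the difference did not pass the correction. A test at this smallest p passes only if most of the 15 tests have a p as low. The number of libraries therefore made a pass unlikely in advance. Leaving out each library in turn kept the difference between -0.72 and -0.57, and counting error on any library's log2 ratio was at most 0.029 (standard error).

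On day 3 the same ratio was 0.239, 0.244, 0.270 and 0.252 in adhesive libraries, against 0.401, 0.228, 0.401 and 0.464 in non-adhesive libraries. Replicate 2 of the non-adhesive group, the library with low collagen levels, was the lowest of the day, and its other 3 libraries were above all adhesive ones. The log2 difference was -0.52 (standard error 0.23, exact permutation p = 0.143, adjusted p = 0.268). Leaving out each library in turn gave -0.75 to -0.40. Between days the log2 ratio differed by 0.084 at adhesive implants (exact permutation p = 0.400) and by 0.20 at non-adhesive implants (exact permutation p = 0.571), where the SD among libraries was 0.15 on day 14 and 0.077 on day 3 at adhesive implants, and 0.19 on day 14 and 0.45 on day 3 at non-adhesive implants.

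**Figure D3:**
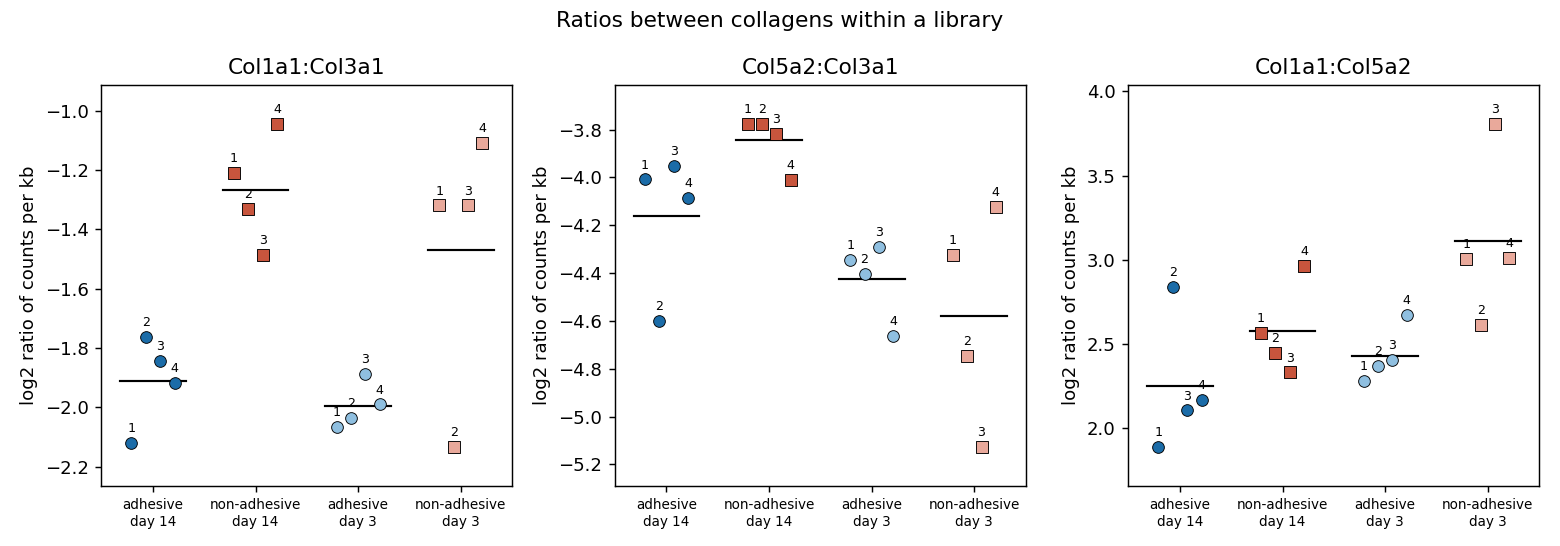
log2 ratios between the collagens, from counts per kb, in every library, with a point per library labelled by its replicate number and a bar at the group mean. In the left panel the 4 adhesive libraries of day 14 are at -2.12 to -1.76 and the 4 non-adhesive ones at -1.49 to -1.04.

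The ratio of Col5a2 to Col3a1 did not overlap between days at non-adhesive implants, which did not pass correction either. It was 0.0730, 0.0729, 0.0709 and 0.0621 on day 14, against 0.050, 0.0372, 0.0286 and 0.0575 on day 3. All day 14 libraries, replicate 4 included, were above all day 3 libraries. The log2 difference was 0.73 (standard error 0.23, exact permutation p = 0.0286, adjusted p = 0.214). This again is the smallest p allowed, and a pass of the correction was as unlikely in advance. At adhesive implants it was 0.0621, 0.0412, 0.0647 and 0.0589 on day 14, against 0.0492, 0.0472, 0.0510 and 0.0395 on day 3. Here replicate 2 of day 14 was within the day 3 range, and the log2 difference was 0.27 (standard error 0.17, exact permutation p = 0.143, adjusted p = 0.268). Between implants, the log2 difference of this ratio was -0.32 on day 14 (exact permutation p = 0.0857, adjusted p = 0.257) and 0.15 on day 3 (exact permutation p = 0.571, adjusted p = 0.612).

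For Col1a1 to Col5a2, the ratio was 3.70, 7.15, 4.31 and 4.49 in adhesive libraries of day 14, against 5.92, 5.45, 5.03 and 7.81 in non-adhesive ones. On day 3 it was 4.86, 5.17, 5.29 and 6.38 in adhesive libraries, against 8.02, 6.12, 14.0 and 8.07 in non-adhesive ones. The groups overlapped on day 14 through adhesive replicate 2, and on day 3 only adhesive replicate 4 was above non-adhesive replicate 2. The log2 difference was -0.33 on day 14 (exact permutation p = 0.229, adjusted p = 0.381) and -0.68 on day 3 (exact permutation p = 0.0571, adjusted p = 0.214). None of the 15 tests of ratios passed the adjustment, which the few splits of 8 libraries made hard to pass. Only Col1a1 to Col3a1 between implants on day 14 and Col5a2 to Col3a1 between days at non-adhesive implants were free of overlap. How often ratios of other gene pairs are free of overlap was not counted.

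Collagens do not act alone, and lists of their partners were counted on day 14 and day 3. These lists too were chosen with earlier results of these data known, so their counts are descriptive. Of 11 fibrillar collagen genes, 4 have a symbol here and were tested, and each of the 4 was lower in mean at adhesive implants on both days. The fourth is Col11a2, a chain of the cartilage fibril collagen type XI, with -0.46 on day 14 and -0.27 on day 3. Its level was low, at a mean of 1.84 CPM over the 16 libraries. Unlike the 3 collagens, its highest library of day 14 was non-adhesive replicate 4, at 4.26 CPM. As 3 of the 4 are the collagens described above, the median of the 4 mostly repeats their values. It was -1.26 on day 14 and -0.93 on day 3, against -0.036 and -0.010 for all genes. Of all genes, 54.3% and 51.5% were negative on these days.

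Matrix proteins listed as fibril-associated, elastin included, were negative throughout. All 9 with a symbol, of 20 listed, had log2 fold changes below 0 on both days, adhesive over non-adhesive, under TMM, DESeq2 size factors and library totals alike, with a median of -1.70 on day 14 and -1.13 on day 3. Fmod, the fibril-binding proteoglycan fibromodulin, was the 1 member that edgeR called lower on day 14, with 5.30 ± 1.98 CPM in adhesive and 27.4 ± 9.32 CPM in non-adhesive libraries (SD, n = 4 each, adjusted p = 0.0442 from edgeR). With library totals alone, with the replicate number as a block, or without any 1 of the 8 libraries of that day except non-adhesive replicate 4, it was not called, at adjusted p of 0.0606 to 0.160 from edgeR and log2 fold changes of -2.55 to -2.17. The largest values belonged to Eln, which encodes elastin, at -2.88, Tnn, the matrix glycoprotein tenascin-N, at -2.68, and Cthrc1, a secreted protein of collagen-producing fibroblasts, at -2.63, none of them called by edgeR. DESeq2 called 4 of the 9 lower on day 14, Cthrc1, Dpt, Eln and Fmod, where it called 2.35% of all genes lower. On day 3 none of the 9 was called by edgeR, and DESeq2 called Dpt and Eln lower, as it did 0.253% of all genes. Without non-adhesive replicate 4, edgeR called 6 of the 9 lower on day 14, Cthrc1, Dpt, Eln, Fmod, Lum and Prelp, where 6.22% of all genes were called lower.

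Other collagens with a symbol were few. On day 14, 3 of the 4 tested were negative: Col6a1 at -1.79 and Col6a2 at -1.62, chains of the beaded filaments of type VI collagen, and Col18a1 of basement membranes at -1.34. Col13a1, a transmembrane collagen, was at 0.58, and neither edgeR nor DESeq2 called any. Without non-adhesive replicate 4, 5 passed the filter on low counts, and edgeR called Col6a1, Col6a2 and Col18a1 lower and Col26a1 higher, where 6.22% of all genes were called lower and 2.1% higher. Col26a1 was near the floor, at 0.246 to 0.290 CPM in the non-adhesive libraries kept and 0.935 CPM in replicate 4. On day 3, 3 of 5 were negative and neither tool called any.

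Genes that make and export procollagen were mixed, with 3 of 5 negative and 2 positive on both days and none called by edgeR or DESeq2. On day 14 the log2 fold changes were -0.83 for Adamts14, a procollagen peptidase, -0.40 for Plod3, a lysyl hydroxylase, and 0.54 and 0.33 for Sec24a and Sec23a, parts of the coat that carries cargo out of the endoplasmic reticulum. With library totals alone, 4 of these 5 were negative on day 3. Collagen receptors and breakdown genes were also mixed, 3 of 5 negative on both days and none called by either tool, with a day 14 median of -0.020. Among them, Adamts4, a protease of proteoglycans, had -1.18, Timp2 -0.51, Timp3 0.29 and Adamts1 0.10, where Timp2 and Timp3 encode inhibitors of matrix proteases. Of profibrotic signalling genes, 3 of 5 were negative on both days and none was called by edgeR, with -1.64 for the growth factor Igf1, -1.38 for the fibroblast receptor Pdgfra, 0.88 for Tgfb2 and -0.49 for Tgfbr3 on day 14. With library totals alone, 4 of 5 were negative on day 14 in each of these last 2 lists. DESeq2 called Igf1 lower on day 14, as it did 2.35% of all genes. Without non-adhesive replicate 4, edgeR called Adamts14, Adamts4, Igf1 and Pdgfra lower, 1, 1 and 2 of the 5 genes of the 3 lists. In that setting 6.22% of all genes were called lower.

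Between days at non-adhesive implants, edgeR called 3 of the 9 fibril-associated genes higher on day 14, where 5.32% of all genes were called higher. At adhesive implants it called 1 of the 9, where 4.39% of all genes were called higher, and whether these counts differ was not tested. The 3 were Eln at 2.16, Dpt at 2.27 and Cthrc1 at 1.87 on the log2 scale, where all 4 fibrillar collagens had positive values and none was called. The gene called at adhesive implants was Dpt, the collagen-binding protein dermatopontin, at 1.71. With library totals alone the counts were 2 and 0, so the call of Dpt at adhesive implants was lost.

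The genes whose levels were most like those of the 3 collagens were sought among 1996 genes with a symbol. Over the 16 libraries, the highest Pearson correlations of log2 CPM with the mean of the 3 collagens were those of Timp2 (0.956), Nid1 (0.954), Kctd17 (0.953), Lum (0.953), Vasn (0.947), Scpep1 (0.945), Col6a2 (0.942) and Man1a1 (0.937). After each day's mean was subtracted, the first 8 were Col6a2 (0.971), Lum (0.969), Pdgfra (0.969), Slc39a7 (0.967), Col6a1 (0.966), Tcn2 (0.963), Olfml2b (0.961) and Scpep1 (0.960). Col6a2, Lum, which encodes the fibril-binding proteoglycan lumican, and Scpep1 were in both. The points share libraries and their scaling, so these values are descriptive.

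Markers of other cells also differed between libraries. The labelled tissue holds skeletal muscle, and the sum of 4 muscle marker genes (Mb, Eno3, Fhl1 and Mybph, of 18 listed) was 27731, 17138, 21788 and 23956 CPM in adhesive libraries of day 14, against 10775, 12150, 10538 and 27088 CPM in non-adhesive libraries. The libraries with the least collagen on day 14, adhesive replicate 1 and non-adhesive replicate 4, had the highest sums, and non-adhesive replicates 1 to 3 had the lowest. In non-adhesive replicate 4, Mb, Eno3 and Fhl1 were above replicates 1 to 3. Mybph went the other way there, at 45.6 CPM against 71.5 to 164 CPM. On day 3 the sum was 12852, 7182, 11352 and 4775 CPM in adhesive libraries, against 4005, 10451, 5138 and 6707 CPM in non-adhesive libraries. Again the high-collagen adhesive replicate 4 was low in muscle markers, and the low-collagen non-adhesive replicate 2 was high. All 4 muscle markers had a log2 fold change above 0 on day 14, none of them called by edgeR. It was 1.09 for the myoglobin gene Mb, 1.60 for the myosin-binding protein gene Mybph and 1.00 for Fhl1. For Eno3 it was only 0.029 (standard error 0.42), with means of 8526 CPM in adhesive and 8345 CPM in non-adhesive libraries. DESeq2 called Mb and Mybph higher, as it did 1.15% of all genes. Without non-adhesive replicate 4, edgeR called Mb and Fhl1 higher, as it did 2.1% of all genes. With library totals alone 1 of the 4 turned negative.

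Leukocyte markers, 8 of 19 with a symbol, summed to 156 to 359 CPM in adhesive libraries of day 14, against 96.5 CPM in non-adhesive replicate 4 and 325 to 491 CPM in its other replicates. On day 3 their sum was 257 to 518 CPM in adhesive libraries, against 142 to 388 CPM in non-adhesive libraries, with the low-collagen replicate 2 at the bottom. Of the 8, 7 were negative on day 14 and 1 on day 3, among them Cd247 at -1.29 and Cd38 at -0.74 on day 14, and neither edgeR nor DESeq2 called any. Fibroblast markers, 3 of 13 with a symbol, summed to 58.4 to 197 CPM in adhesive libraries of day 14, against 62.5 CPM in non-adhesive replicate 4 and 169 to 261 CPM in the other replicates. On day 3 they summed to 81.5 to 202 CPM in adhesive libraries, against 134 to 217 CPM in non-adhesive libraries. Of these markers, Pdgfra had a log2 fold change of -1.38 on day 14, Prrx1 0.30 and Pi16 -0.096. All 4 nerve glia markers and the single adipocyte and endothelium markers with a symbol, Adipoq and Flt4, were negative on day 14, with none called by edgeR. DESeq2, and edgeR without non-adhesive replicate 4, each called the glial marker S100b, Adipoq and Flt4 lower, and edgeR without that library called the fibroblast marker Pdgfra lower too. Of all genes, DESeq2 called 2.35% lower, and edgeR without that library 6.22%. No measured marker was at 0 in any library. The part of muscle, leukocyte or other cell content in the collagen values was not tested.

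**Figure D4:**
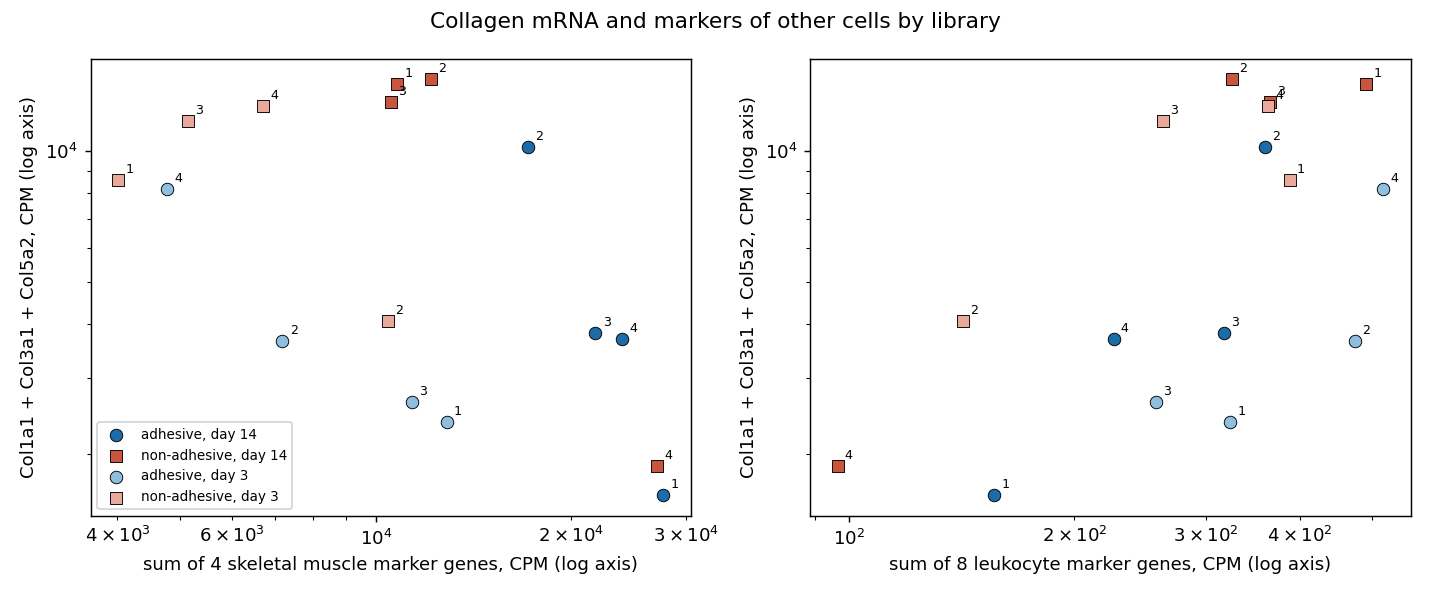
Sum of the 3 collagens against the sum of 4 skeletal muscle marker genes (left) and of 8 leukocyte marker genes (right), both in CPM on log axes, with a point per library labelled by its replicate number. On day 14, non-adhesive replicate 4 lies at 1878 CPM of collagen and 27088 CPM of muscle markers, beside adhesive replicate 1 at 1607 and 27731 CPM.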

How the data were processed

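Total RNA of the abdominal wall was sequenced in 16 libraries after oligo(dT) enrichment. Per the labels and the methods of the study, the authors used bcl2fastq 2.17, FastQC, Cutadapt, the aligner STAR and, for reads per gene, featureCounts. What they deposited are raw counts, whole numbers with no normalization. Versions of the other tools and the use of strand are not given in the sources used here. Symbols came from the gene sheets of the study, held in part. The authors' fold changes and p-values in those sheets were not used.

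Implants were compared within a fit of the 8 libraries of a day, and days, with the difference of implant effects, in a fit of all 16. After filterByExpr and TMM, edgeR 4.0.16 in R 4.3.3 gave quasi-likelihood tests (robust, Benjamini-Hochberg over all genes tested). Calls needed an adjusted p no higher than 0.05 and a log2 fold change of 1 or more in size. Log2 ratios of counts per kb were compared by exact permutation tests, two-sided, for 3 ratios in 5 comparisons. For the difference of implant effects, 4900 label combinations within days were used. log2 CPM used a prior count of 2. Alternatives were DESeq2 1.42.0, which the study used, limma-voom (limma 3.58.1), other scalings, no filter, no fold limit, other fits, the replicate number as a block, group medians and leaving out each library. The fits were tested on simulated data (200 genes changed). Python 3.11, pandas 2.3.3, numpy 2.4.6, scipy 1.17.1 and matplotlib 3.10.9 were used.

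The collagens and 13 gene lists were chosen with earlier results of these data known. Up to 4 members a list, or 2 for markers of other cells, with at least 1 CPM were named in order of the day 14 fold change, and the 8 genes most like the collagens; other members named beside a count of calls were chosen after their values were seen. For the 4 muscle markers all day 14 fold changes were given. No member of the mesothelium list has a symbol here.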

Additional observations from a re-analysis of the deposited data

Results flagged for a closer look

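In the non-adhesive group of day 14, replicate 4 stood far below its 3 fellow libraries for Col3a1, at 1137 CPM, with a gap to the nearest of them of 0.906 of the group's range. For Col5a2 the same library stood at 66.5 CPM, with a gap of 0.879 of the range. Both gaps are past Dixon's 95% limit for 4 samples, which chance passes in about 1 in 20 groups. These gaps were taken on the CPM scale, where Col1a1 did not pass the limit in any group. On log2 CPM the same library passed it for all 3 genes, with gaps of 0.883 for Col1a1, 0.959 for Col3a1 and 0.949 for Col5a2. The ratios between the collagens did not pass it in any group, as ratios or as log2 ratios.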

How the results depend on the processing

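None of the 30 results passed its threshold in the main setting, so keeping that side was easy. Fold changes without the fold limit repeat the main ones and could not reverse. Of 480 values of the 30 results under alternatives, 446 kept their direction and their side of the threshold. The exceptions in the comparisons of implants were Col5a2 on day 14, called only without non-adhesive replicate 4 (range over left-out libraries -1.89 to -1.26), and the ratio of Col5a2 to Col3a1 on day 3, which had either sign (-0.029 to 0.31). All other reversals were between days, where no collagen was called. Leaving out each library gave, at adhesive implants, -0.43 to 0.83 for Col1a1, -0.51 to 0.67 for Col3a1 and -0.024 to 0.73 for Col5a2, and at non-adhesive implants -0.089 to 0.50 for Col1a1, -0.0035 to 0.51 for Col3a1 and -0.019 to 0.32 for the log2 ratio of Col1a1 to Col3a1. The difference of implant effects ran over -0.65 to 0.66 for Col1a1, -0.72 to 0.50 for Col3a1 and -0.24 to 0.10 for the ratio of Col1a1 to Col3a1, which was 0.082 with group medians. With library totals alone, values between days were -0.23 (Col1a1), -0.39 (Col3a1) and -0.20 (Col5a2) at adhesive and -0.13 (Col1a1) and -0.12 (Col3a1) at non-adhesive implants, and the difference of implant effects of Col1a1 was -0.099. This scaling moves the median of all genes to -0.22 on day 14 and -0.072 on day 3. With limma-voom, Col3a1 had -0.15 between days at non-adhesive implants and 0.20 for the difference of implant effects. The cause of these changes was not tested, beyond the shift of all genes.

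Same-numbered libraries did not all deviate together (correlations of -0.31 to 0.30 on day 3 and -0.34 to 0.48 on day 14). With 4 pairs a day, these values cannot settle whether the numbers pair libraries. With the replicate number as a block, Col1a1, Col3a1 and Col5a2 had log2 fold changes of -1.53, -0.94 and -1.30 on day 14 and -1.60, -1.05 and -0.91 on day 3, with 0 genes called on either day; the smallest p of the paired ratio test is 0.125.

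Over all genes on day 14, edgeR called 36, DESeq2 474, a single fit of all libraries 216 and library totals alone 6, and leaving out 1 library gave 1 to 1151. On day 3 DESeq2 called 69 against 0, and for the difference of implant effects 25 against 1. Library totals alone called 2602 genes between days at adhesive implants against 1186, with 296 higher and 2306 lower in place of 641 and 545, and a fit of the 8 non-adhesive libraries called 575 against 1325.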
